A study of Mus musculus with 31 samples.

Results

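The nuclear factor I (NFI) family of mouse transcription factors has 4 genes, Nfia, Nfib, Nfic and Nfix, and all 4 were followed by symbol through the 47729 genes of the count matrix. All 4 passed the filter on low counts, among 19332 genes that did. The libraries were made from pieces of nerve laser-microdissected from Sox10:H2BVenus BAC transgenic embryos, in which a Sox10 transgene labels glial nuclei with a fluorescent histone. Every group carried this transgene, and no gene was deleted and no agent given in any of them. Pieces came from the olfactory nerve where it runs under the olfactory epithelium at embryonic days E11.5 (n = 4), E13.5 (n = 7) and E16.5 (n = 4), from the olfactory nerve layer (ONL) on the olfactory bulb at E13.5 (n = 5), from the outer (n = 4) and inner (n = 4) ONL at E16.5, and from the trigeminal nerve at E16.5 (n = 3). These nerves hold olfactory ensheathing cells (OECs, the glia of olfactory axons) or, in the trigeminal nerve, Schwann cells, together with axons and whatever adjacent tissue was cut with them.

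NFI proteins bind DNA as dimers, either of one member with itself or of different members, through a DNA-binding domain near the amino terminus that is much alike in all of them. In the embryonic spinal cord and forebrain, Nfia and Nfib are known for driving the switch from making neurons to making glia, and Nfia acts there with Sox9, a transcription factor that precedes it. Nfix is known from neural stem cells and skeletal muscle, and Nfic from tooth root formation. All of them are also expressed in connective tissues, so a level measured in a whole piece of nerve is not that of glia alone.

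On GRCm38 (GENCODE M21), Nfia (ENSMUSG00000028565) lies at chr4:97772734-98118874 on the plus strand and Nfib (ENSMUSG00000008575) at chr4:82290173-82705750 on the minus strand. Nfic (ENSMUSG00000055053) lies at chr10:81396186-81455635 and Nfix (ENSMUSG00000001911) at chr8:84699876-84800344, both on the minus strand. The 60 coding bases most alike among the 4 genes are shown because they tell whether reads of one member can be told from reads of another. They lie in exon 2 of each gene, at chr4:97783134-97783193 in Nfia, chr4:82498658-82498717 in Nfib, chr10:81420687-81420746 in Nfic and chr8:84772204-84772263 in Nfix. Each is written 5′ to 3′ on the strand of its gene, with capitals where the base differs from Nfia.
Nfia: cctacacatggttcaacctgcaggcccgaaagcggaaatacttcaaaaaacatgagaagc
Nfib: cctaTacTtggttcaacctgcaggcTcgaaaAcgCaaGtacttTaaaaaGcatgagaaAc
Nfic: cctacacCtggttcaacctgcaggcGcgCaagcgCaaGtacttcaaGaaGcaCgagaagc
Nfix: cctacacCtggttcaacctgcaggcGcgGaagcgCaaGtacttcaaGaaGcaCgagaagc
Nfib differed from Nfia at 9 of these 60 bases, and Nfic and Nfix each at 8. Nfic and Nfix were far more alike, and differed from each other here only in GcgCaag against GcgGaag. Nfic and Nfix also shared the longest identical run of any pair of members in the annotated transcripts, 32 bases, against 18 to 25 bases in the other pairs. Exons of other genes covered 1.92% of the exon bases of Nfix and 1.09% of those of Nfic, where reads could not be told apart without strand.

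For Nfix the study made a riboprobe for in situ hybridization, and its primers are shown because they fix which part of the transcript was probed. Nfix is not among the genes that the study lists as OEC markers at E16.5. The study reports that many of its candidate genes were expressed in tissue beside the nerve pieces and not in glia. The forward primer matched coding bases of exon 3 at chr8:84727917-84727936, and the reverse primer crossed an exon junction further 3′. The product spanned 640 to 914 bases in the 4 annotated transcripts that hold both primers.
Forward: aggagatgcggacatcaaac
Reverse: ggaaccaggactgagactgc

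The labels of 10 of the 31 libraries name another group than the one used here. The study's own group means each matched the average of a set of libraries almost exactly, and those sets define the groups below. In this grouping, the 4 E11.5 nerve libraries were labelled E13.5 ONL replicates 2 to 5. The 5 E13.5 ONL libraries were all 4 that carry the label E11.5 olfactory nerve, and replicate 1 of those labelled E13.5 olfactory nerve. Of the 7 E13.5 nerve libraries, 1 was labelled E13.5 ONL replicate 1. All E16.5 labels matched. Every test of a member that involves E11.5 or E13.5 is therefore given also with the libraries grouped by label, and for the E16.5 comparisons the calls by label are given. Total counts ran from 3512627 to 36705535 per library, and no 2 libraries were identical. Sox10, which marks these glia, was found in every library, with group means of 57.4 CPM in E13.5 nerve to 646 CPM in E16.5 outer ONL. CPM are counts scaled to library size with edgeR's TMM factors, given per library or as mean ± SD. In bulk pieces, fewer cells that express a gene and less RNA per cell cannot be told apart. Per the study's methods, each library pooled tissue from several sections, and the E11.5 and E13.5 groups held more pieces than embryos. By the study's account the 4 E11.5 nerve pieces came from 2 embryos. The 7 E13.5 nerve pieces and the 5 E13.5 ONL pieces came from 4 embryos per group. Which libraries share an embryo is not given, so p-values measure the spread between pieces.

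Nfib was the leading member in every group. Per kilobase of exon, the scale on which genes can be compared, its mean level ran from 10.3 CPM per kb in E11.5 nerve to 45.7 in E13.5 nerve, and it made up 39.7% to 64.3% of the family total. Nfix was the lowest member in every group on this scale, at 0.201% of the family total in E11.5 nerve and 9.89% in trigeminal nerve. The share of Nfia had its highest mean in inner ONL, at 29.4% ± 1.05 (SD, n = 4), and its lowest in trigeminal nerve, at 11.52% ± 1.16 (SD, n = 3). Nfic made up 10.1% in E13.5 ONL and 32.1% in E16.5 outer ONL. The summed level of the family was 16.4 CPM per kb in E11.5 nerve, 70.8 in E13.5 nerve, 75.4 in E16.5 nerve and 69.8 in trigeminal nerve. In the layer on the bulb it lay between the E11.5 nerve mean and the other nerve means, at 32.2 CPM per kb in E13.5 ONL, 54.2 in outer ONL and 37.7 in inner ONL.

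**Figure D1:**
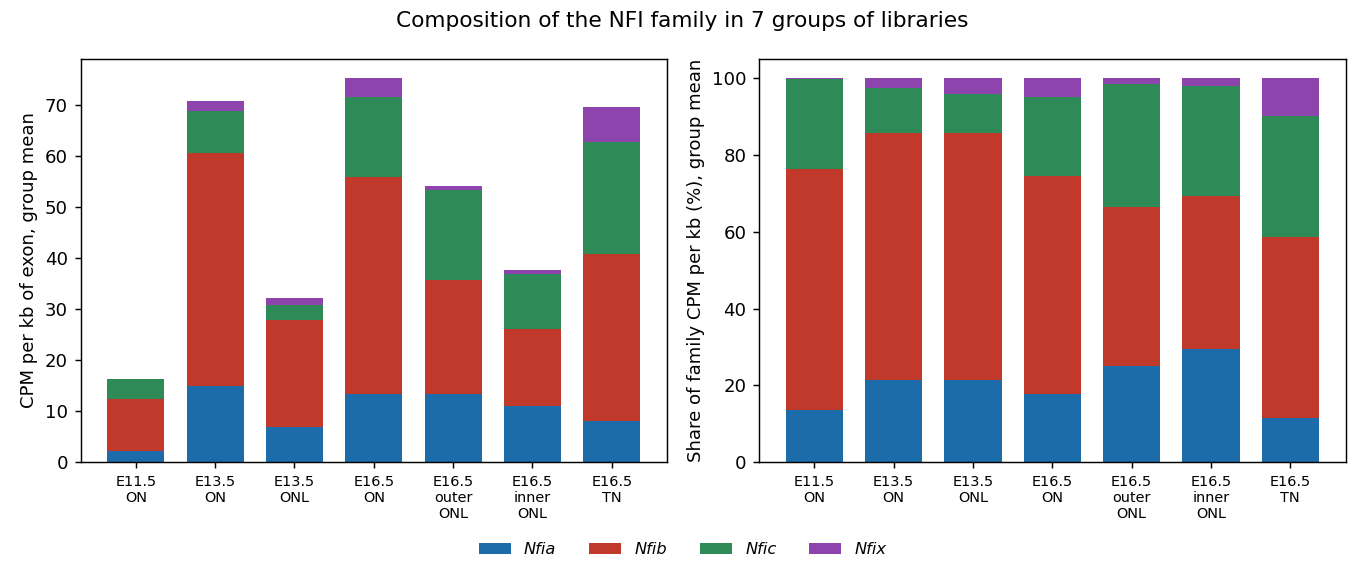
Stacked bars of the mean level of each NFI gene per group, as CPM per kb of exon (left) and as percent of the family total (right). ON is olfactory nerve and TN trigeminal nerve. Nfib takes 39.7% to 64.3% of each right-hand bar, and the Nfix segment is widest in trigeminal nerve at 9.89%.

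Each member had its own order of group means. In CPM, Nfia was highest in E13.5 nerve (164 ± 16.4), followed by outer ONL (147 ± 18.6) and E16.5 nerve (145 ± 10.7), and neighbours among these 3 groups overlapped. Inner ONL (121 ± 15.2) lay below every E16.5 nerve library, trigeminal nerve (87.4 ± 8.70) overlapped E13.5 ONL (75.0 ± 17.1), and E11.5 nerve (24.3 ± 6.90) lay below all. Nfib was highest in E13.5 nerve (683 ± 105) and E16.5 nerve (637 ± 98.1), which overlapped. Trigeminal nerve (491 ± 33.2) lay below every E16.5 nerve library, reached into the range of E13.5 nerve by 1 library and lay above outer ONL (334 ± 36.1), and from there E13.5 ONL (314 ± 95.3), inner ONL (225 ± 32.1) and E11.5 nerve (154 ± 46.8) overlapped one neighbour after another. Nfic was highest in trigeminal nerve (146 ± 20.0), and overlapped from one neighbour to the next through outer ONL (116 ± 28.2), E16.5 nerve (104 ± 24.2), inner ONL (71.2 ± 10.7) and E13.5 nerve (54.0 ± 8.30). E11.5 nerve (25.5 ± 6.67) and E13.5 ONL (19.9 ± 6.58) lay below these and overlapped each other. Nfix was highest in trigeminal nerve (50.4 ± 5.43), which lay above every E16.5 nerve library (28.5 ± 12.6). E13.5 nerve (14.1 ± 3.22), E13.5 ONL (10.1 ± 3.26), outer ONL (6.54 ± 3.41) and inner ONL (6.23 ± 2.91) overlapped neighbour by neighbour, and E11.5 nerve lay below all at 0.282 ± 0.276. With libraries grouped by label, the E13.5 ONL group mixed the lowest and the highest values, and its Nfia ran from 16.45 to 195 CPM, against 50.2 to 96.0 CPM in the E11.5 group and 84.0 to 171 CPM in the E13.5 nerve group.

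**Figure D2:**
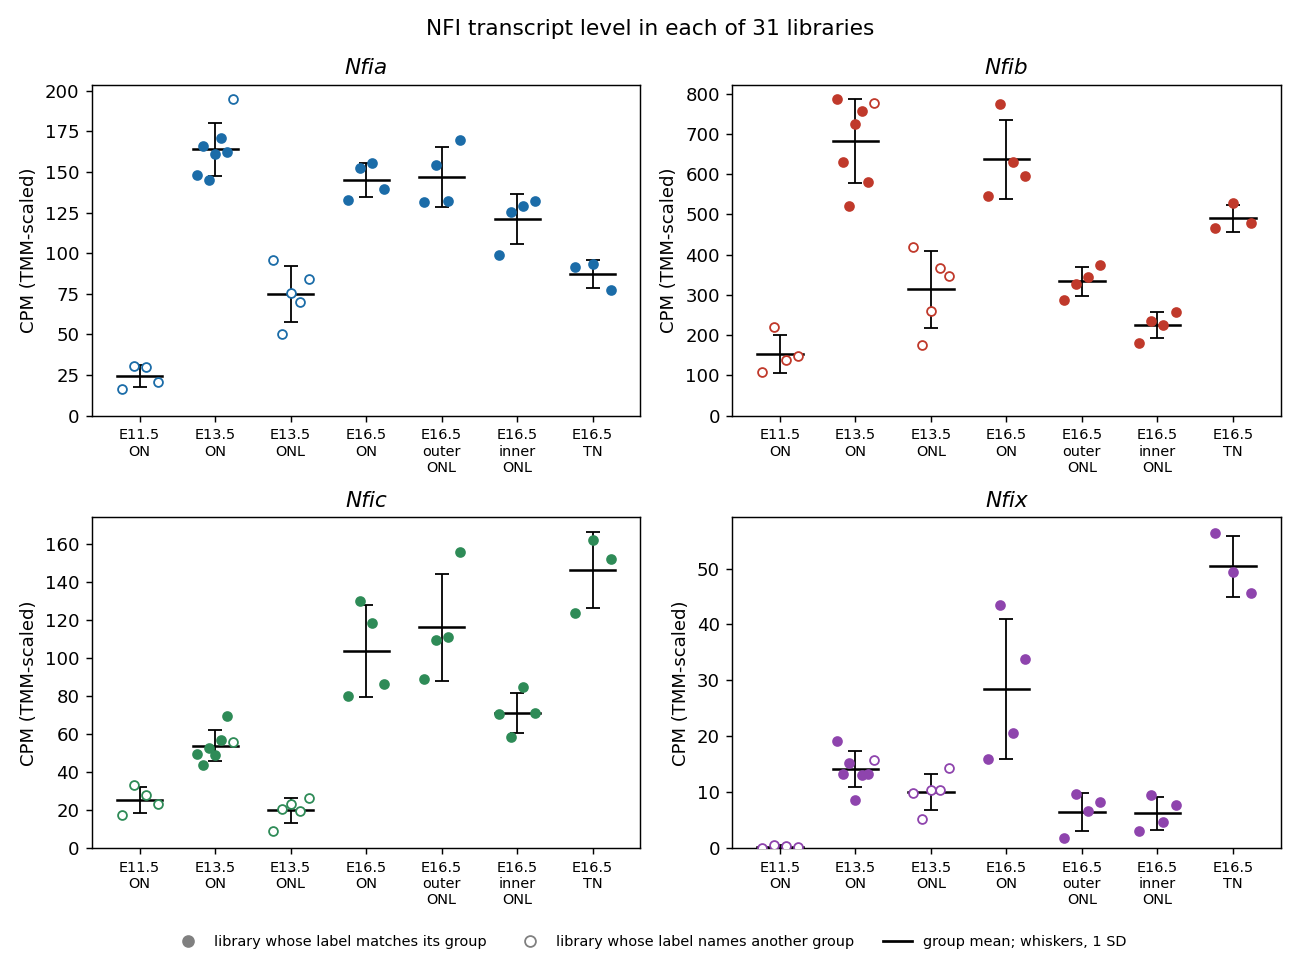
CPM of each NFI gene in every library (points), with the group mean (bar) and 1 SD (whiskers) in 7 groups. Open points are the 10 libraries whose label names another group. Nfix lies between 0.00 and 0.6248 CPM in the 4 E11.5 libraries and between 45.6 and 56.3 CPM in the 3 trigeminal libraries.

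At E16.5, outer ONL and olfactory nerve, which hold OECs on the bulb and OECs in the mucosa, differed in Nfib and Nfix and not detectably in Nfia or Nfic. Nfix, the least abundant member, was at 1.76, 9.61, 6.62 and 8.18 CPM in outer ONL replicates 1 to 4, and at 15.97, 43.6, 20.5 and 33.8 CPM in the 4 nerve libraries. Nfib was at 289, 327, 344 and 375 CPM in outer ONL and at 547, 775, 630 and 596 CPM in nerve. For both genes every ONL library lay below every nerve library. Nfix was 4.33-fold lower in outer ONL (log2 difference -2.11 ± 0.47 SE, adjusted p = 0.00125, quasi-likelihood test of edgeR, Benjamini-Hochberg adjustment over all genes tested), and Nfib 1.91-fold lower (-0.93 ± 0.20, adjusted p = 0.000970). These were 2 of the 4 members, both lower, where 22.0% of all genes tested were called in this comparison and 11.8% were called lower. Nfia was at 132, 154, 132 and 170 CPM in outer ONL and at 133, 152, 156 and 140 CPM in nerve. The log2 difference of Nfia was 0.018 ± 0.17 (adjusted p = 0.961), and that of Nfic 0.17 ± 0.22 (adjusted p = 0.668), so shifts of the size seen for Nfix lay outside 2 standard errors of both. The sign of the Nfia difference turned under other scalings.

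Markers of other cells moved with this comparison. Of 6 glial markers 5 were called higher in outer ONL, where their summed level ran from 18668 to 32874 CPM against 1661 to 3906 CPM in nerve. Of 8 mesenchyme markers 5 were called lower in outer ONL, with sums of 5732 to 11009 CPM against 9552 to 16190 CPM, and all 4 cartilage markers were called lower. Olfactory epithelium progenitor markers had 3 of 4 called lower, with sums of 3.53 to 13.6 CPM against 37.8 to 161 CPM and a median log2 difference of -4.68, and olfactory neuron markers had 3 of 5 called lower (128 to 811 CPM against 590.0 to 1081 CPM). No glial, mesenchyme or cartilage marker was at 0 in all libraries of either group. The part of these cells in the Nfib and Nfix differences was not tested. With the early libraries grouped by label, the E16.5 groups were the same but the spread estimated over all libraries was wider, and both calls were lost (adjusted p = 0.119 for Nfix and 0.108 for Nfib, with 16.1% of all genes called). Fitted to the E16.5 libraries alone, both were called (adjusted p = 0.00124 for Nfix and 6.32e-05 for Nfib).

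**Figure D3:**
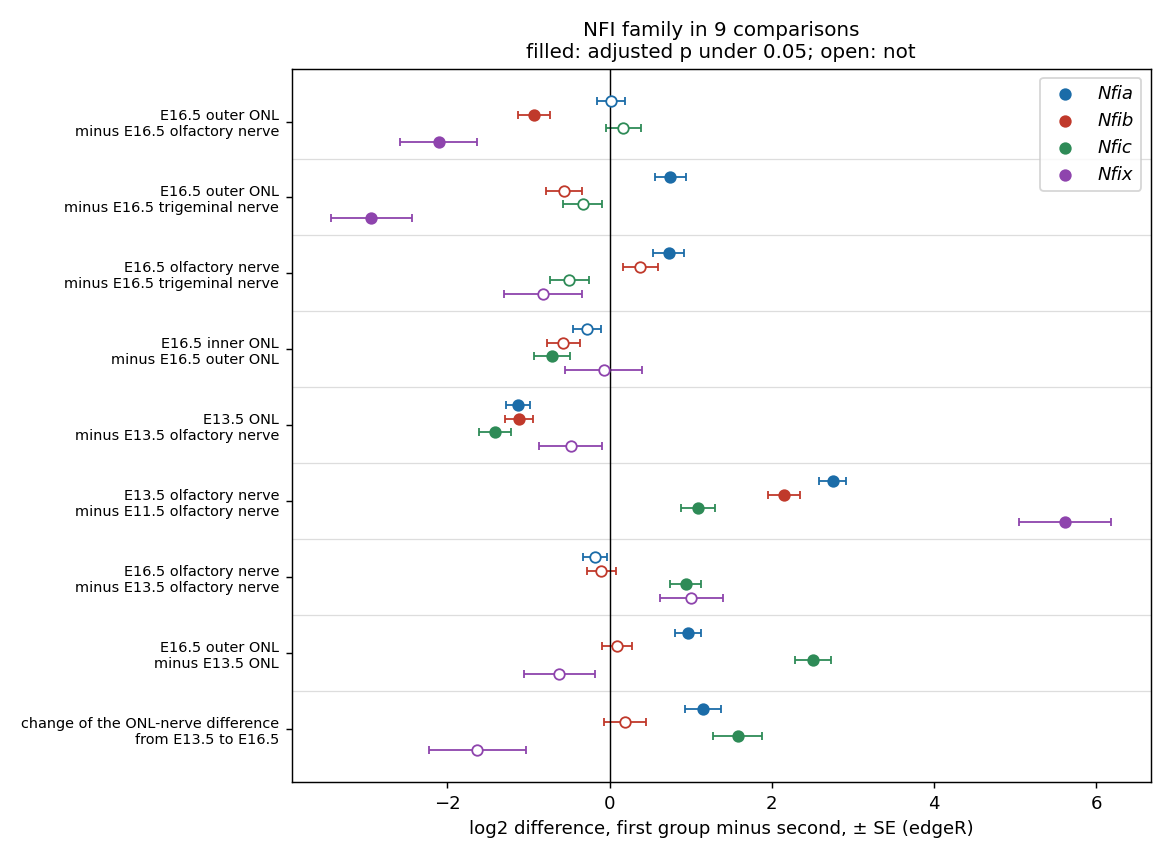
Log2 difference (first group minus second, ± SE, edgeR) of each NFI gene in 9 comparisons, with filled points at adjusted p under 0.05. Between E13.5 and E11.5 nerve all 4 points lie right of 0, from 1.09 for Nfic to 5.62 for Nfix, and in outer ONL against olfactory nerve the filled points are Nfib (-0.93) and Nfix (-2.11).

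Against trigeminal nerve, the tissue with Schwann cells, outer ONL had more Nfia and less Nfix. Trigeminal libraries had 91.3, 93.5 and 77.5 CPM of Nfia, below each of the 4 outer ONL libraries, and 56.3, 49.4 and 45.6 CPM of Nfix, above each of them. Nfia was 1.68-fold higher in outer ONL (log2 difference 0.75 ± 0.19, edgeR adjusted p = 0.00285) and Nfix 7.67-fold lower (-2.94 ± 0.50, adjusted p = 3.68e-05). So 2 of the 4 members were called, in opposite directions, where 25.8% of all genes tested were. Nfib, at 465, 528 and 478 CPM in trigeminal nerve, was above every outer ONL library but missed the threshold (-0.56 ± 0.22, adjusted p = 0.0565). It passed in 6 of the alternative fits, at adjusted p of 0.00910 with E16.5 libraries only. Nfic, at 124, 162 and 152 CPM in trigeminal nerve, overlapped outer ONL, where it was at 88.9, 110, 111 and 156 CPM (-0.33 ± 0.24, adjusted p = 0.344). The mesenchyme sum ran from 23488 to 27627 CPM in trigeminal nerve, above the 5732 to 11009 CPM of outer ONL, with 5 of 8 markers called lower in outer ONL, and 3 of 4 endothelium markers were called lower as well. Called higher in outer ONL were 3 of 6 glial, 4 of 5 forebrain neuron (1 lower), 3 of 4 forebrain progenitor, 3 of 5 olfactory neuron and 2 of 4 olfactory epithelium progenitor markers. The part of these cells in the Nfia and Nfix differences was not tested. By label, Nfix kept its call (adjusted p = 0.0316) and Nfia lost it (adjusted p = 0.317), where 20.3% of all genes were called.

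Olfactory nerve and trigeminal nerve differed in 1 member. Nfia was 1.66-fold higher in olfactory nerve (log2 difference 0.73 ± 0.19, edgeR adjusted p = 0.00406), with the 4 olfactory libraries at 133 to 156 CPM and the 3 trigeminal ones at 77.5 to 93.5 CPM, where 23.6% of all genes tested were called and 13.0% were called higher. Nfib was 0.38 ± 0.22 higher on the log2 scale (adjusted p = 0.232), Nfic was at -0.50 ± 0.24 (adjusted p = 0.137) and Nfix at -0.82 ± 0.48 (adjusted p = 0.229), and none of these passed. The groups did not overlap for Nfib or Nfix, and for Nfic they did. Glial markers had 1 of 6 called higher and 2 called lower in olfactory nerve, and mesenchyme markers 3 of 8 called lower. Olfactory epithelium progenitor markers were all 4 called higher in olfactory nerve (sums of 37.8 to 161 CPM against 0.0361 to 0.902 CPM), as were all 4 cartilage markers (805 to 4842 CPM against 129 to 165 CPM), 4 of 5 olfactory neuron, 3 of 4 forebrain progenitor and 2 of 5 forebrain neuron markers. Their part in the Nfia difference was not tested. Nfib passed with E16.5 libraries only (0.44 ± 0.16, adjusted p = 0.0484) and with scaling by total count (0.63 ± 0.24, adjusted p = 0.0475). By label no member was called and 17.8% of all genes were, and Nfia had an adjusted p of 0.343.

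Within the ONL at E16.5, the inner pieces, cut closest to the bulb, had less Nfic than the outer ones. By the study's account, the 2 kinds of piece did not separate the inner from the outer OECs of the layer. The study also reports olfactory bulb tissue in the inner pieces. Nfic was at 70.4, 58.6, 84.9 and 70.9 CPM in inner ONL replicates 1 to 4, each below the 88.9 CPM of the lowest outer library. It was 1.63-fold lower (log2 difference -0.71 ± 0.22, edgeR adjusted p = 0.0296), 1 of 4 members called where 14.1% of all genes tested were called and 5.94% were called lower. The call was lost without any 1 of 5 libraries, with adjusted p of 0.0504 and 0.149 without outer ONL replicates 3 and 4, and 0.0658, 0.0967 and 0.0576 without inner ONL replicates 1, 2 and 4. Nfib, at 181, 236, 225 and 257 CPM in inner ONL, also lay below every outer library, and its difference of -0.57 ± 0.20 had an adjusted p of 0.0566. It passed without outer ONL replicate 1 (adjusted p = 0.0459) and with E16.5 libraries only (adjusted p = 0.0157). Nfia, at 98.7, 125, 129 and 132 CPM in inner ONL, overlapped outer ONL at its edge (-0.28 ± 0.17, adjusted p = 0.349), and Nfix, at 3.09, 9.55, 4.63 and 7.65 CPM, overlapped it throughout (-0.075 ± 0.47, adjusted p = 0.964). All 8 mesenchyme markers were called lower in inner ONL (sums of 921 to 2168 CPM) and all 5 forebrain neuron markers were called higher (340 to 722 CPM against 6.14 to 133 CPM). All 4 cartilage markers were called lower too, and 3 of 5 olfactory neuron markers were called higher and 1 lower. The part of these cells in the differences was not tested. By label, the call of Nfic was lost (adjusted p = 0.141), where 8.58% of all genes were called.

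Between E11.5 and E13.5 in the olfactory nerve, all 4 members rose. Nfix had 0, 23, 9 and 4 counts in the 4 E11.5 libraries, or 0.00, 0.6248, 0.373 and 0.129 CPM, and ran from 8.68 to 19.2 CPM (median 13.3) in the 7 libraries of E13.5. Nfia was at 16.45, 30.3, 29.9 and 20.6 CPM at E11.5, and ran from 145 to 195 CPM (median 162) at E13.5. Nfib was at 110, 220, 138 and 148 CPM at E11.5, and ran from 522 to 787 CPM (median 726) at E13.5. For these 3 genes, as for Nfic (17.5 to 33.2 CPM, then 43.7 to 69.8 CPM), every E11.5 library lay below every E13.5 library. The rise was 49.3-fold for Nfix (log2 difference 5.62 ± 0.57, edgeR adjusted p = 7.37e-09), 6.74-fold for Nfia (2.75 ± 0.17, adjusted p = 4.67e-13), 4.44-fold for Nfib (2.15 ± 0.20, adjusted p = 9.33e-10) and 2.12-fold for Nfic (1.09 ± 0.21, adjusted p = 0.000134). In this comparison 36.6% of all genes tested were called and 20.2% were called higher. The fold of Nfix rests on few counts at E11.5, and without the library of 23 counts (labelled E13.5 ONL replicate 3) its log2 difference was 6.51 ± 0.66.

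Mesenchyme markers rose over the same interval (7 of 8 called higher and 1 lower, sums of 2187 to 2883 CPM and then 3546 to 6416 CPM), as did all 4 endothelium and 3 of 4 olfactory epithelium progenitor markers. Olfactory neuron markers had 1 of 5 called higher and 3 lower. The part of these cells in the rise of the family was not tested. Of 6 glial markers 2 were called higher and 3 lower, and their sum ran from 535 to 963 CPM at E11.5 and from 481 to 1064 CPM at E13.5. Grouped by label, the rise was smaller for 3 members. Nfib (1.03 ± 0.36, adjusted p = 0.0467) and Nfic (1.42 ± 0.28, adjusted p = 0.000828) were called, and Nfia (1.03 ± 0.42, adjusted p = 0.0910) and Nfix (0.63 ± 0.81, adjusted p = 0.657) were not, where 17.5% of all genes were called.

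At E13.5, the ONL had less of 3 members than the nerve. Nfia was at 96.0, 50.2, 75.2, 69.7 and 84.0 CPM in the 5 ONL libraries, all below the 145 CPM of the lowest nerve library. Nfib was at 419, 177, 261, 366 and 346 CPM in ONL, all below the 522 CPM of the lowest nerve library, and Nfic at 9.13, 20.7, 23.5, 19.8 and 26.5 CPM, all below 43.7 CPM. In ONL, Nfia was 2.19-fold lower (log2 difference -1.13 ± 0.15, edgeR adjusted p = 3.25e-07), Nfib 2.18-fold lower (-1.12 ± 0.17, adjusted p = 5.33e-06) and Nfic 2.65-fold lower (-1.41 ± 0.20, adjusted p = 1.18e-06). That is 3 of 4 members called, all lower, where 31.5% of all genes tested were called and 16.1% were called lower. Nfix, at 9.96, 5.18, 10.4, 10.4 and 14.4 CPM in ONL, overlapped the nerve libraries (-0.48 ± 0.39, adjusted p = 0.388). The ONL pieces held forebrain neuron markers at 803 to 1089 CPM against 40.3 to 66.8 CPM in nerve, with all 5 called higher, and glial markers at 4301 to 6731 CPM against 481 to 1064 CPM. Glial markers had 5 of 6 called higher and 1 lower, and olfactory neuron markers 3 of 5 called higher and 2 lower. Of 8 mesenchyme markers, 5 were called lower and 2 higher in ONL, and 3 of 4 cartilage and 3 of 4 olfactory epithelium progenitor markers were called lower. The part of these cells was not tested. By label, Nfia (-1.35 ± 0.39, adjusted p = 0.0188) and Nfib (-1.16 ± 0.33, adjusted p = 0.0178) were called lower in ONL, and Nfic (-0.66 ± 0.24, adjusted p = 0.0581) and Nfix (-2.14 ± 0.80, adjusted p = 0.0625) were not, where 17.7% of all genes were called.

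Between E13.5 and E16.5, Nfic rose in the olfactory nerve. It was at 80.1, 130, 118 and 86.4 CPM in the 4 E16.5 libraries, above every E13.5 library (43.7 to 69.8 CPM). The rise was 1.92-fold (log2 difference 0.94 ± 0.19, edgeR adjusted p = 0.000500), 1 of 4 members called where 28.8% of all genes tested were called and 15.2% were called higher. Nfix had means of 14.1 and 28.5 CPM with groups that overlapped, and its difference of 1.01 ± 0.39 had an adjusted p of 0.0505. It passed with DESeq2 (1.06 ± 0.39, adjusted p = 0.0236), in the fit of the 2 groups alone (1.03 ± 0.25, adjusted p = 0.00509), and without E13.5 nerve replicate 2, E16.5 nerve replicate 1 or E16.5 nerve replicate 3 (adjusted p of 0.0444, 0.0347 and 0.0415). Nfia (-0.18 ± 0.15, adjusted p = 0.415) and Nfib (-0.10 ± 0.18, adjusted p = 0.719) did not pass and overlapped between the stages. Mesenchyme markers had 6 of 8 called higher and 2 lower at E16.5, glial markers 5 of 6, cartilage markers 4 of 4, and endothelium and macrophage markers 3 of 4 each, and their part was not tested. By label, Nfic kept its call (1.06 ± 0.25, adjusted p = 0.00253), Nfix was at 1.03 ± 0.76 (adjusted p = 0.341), and Nfia was at -0.029 ± 0.40 (adjusted p = 0.970) and the Nfib difference changed sign to 0.036 ± 0.34 (adjusted p = 0.955), with 25.1% of all genes called.

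In the layer on the bulb over the same days, Nfic and Nfia rose. Nfic was 5.71-fold higher in E16.5 outer ONL than in E13.5 ONL (log2 difference 2.51 ± 0.22, edgeR adjusted p = 4.01e-10), and Nfia 1.96-fold higher (0.97 ± 0.16, adjusted p = 1.44e-05). Every outer ONL library lay above every E13.5 ONL library for both genes. These were 2 of 4 members, both higher, where 41.9% of all genes tested were called and 21.9% were called higher. Nfib, with means of 314 and 334 CPM, was at 0.091 ± 0.19 (adjusted p = 0.740), and Nfix, with means of 10.1 and 6.54 CPM, at -0.62 ± 0.44 (adjusted p = 0.277). Forebrain neuron markers were all 5 called lower at E16.5 and glial markers 5 of 6 called higher. Cartilage markers were all 4 called higher (sums of 293 to 884 CPM against 67.0 to 105 CPM), mesenchyme markers had 5 of 8 called higher and 1 lower (5732 to 11009 CPM against 1871 to 3910 CPM), and all 4 forebrain progenitor markers were called lower. The part of these cells was not tested. By label, Nfic (1.89 ± 0.28, adjusted p = 5.23e-06) and Nfia (1.34 ± 0.43, adjusted p = 0.0161) kept their calls, Nfib was at 0.26 ± 0.37 (adjusted p = 0.607), and the sign of Nfix turned (1.06 ± 0.86, adjusted p = 0.353), with 35.2% of all genes called.

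The change in the difference between ONL and nerve from E13.5 to E16.5 was tested directly, with outer ONL alone standing for the layer at E16.5. Inner ONL was not tested against nerve. Its means lay below those of E16.5 nerve for Nfia (121 against 145 CPM, no overlap) and Nfic (71.2 against 104 CPM, with overlap). For Nfia the log2 difference went from -1.13 at E13.5 to 0.018 at E16.5, a change of 1.15 ± 0.22 (edgeR adjusted p = 0.000624), and for Nfic from -1.41 to 0.17, a change of 1.58 ± 0.30 (adjusted p = 0.000423). Nfib was lower than in nerve both in E13.5 ONL and in E16.5 outer ONL, and its change of 0.19 ± 0.26 did not pass (edgeR adjusted p = 0.738). Nfix went the other way, by -1.63 ± 0.60 (adjusted p = 0.0714), and passed with DESeq2 (-1.70 ± 0.58, adjusted p = 0.0264). It also passed without E16.5 outer ONL replicate 2, E16.5 nerve replicate 1 or the E13.5 ONL library labelled E11.5 olfactory nerve replicate 2 (adjusted p of 0.0476, 0.0492 and 0.0488). So 2 of 4 members were called, both higher, where 12.3% of all genes tested were called and 5.59% were called higher. The 5 forebrain neuron markers were all called, with a median change of -5.66, and 2 of 5 olfactory neuron markers were called higher and 3 lower, and their part was not tested. By label no member was called and 12.5% of all genes were (Nfia 1.37 ± 0.60, adjusted p = 0.135, and Nfic 0.83 ± 0.38, adjusted p = 0.154), Nfib was at 0.23 ± 0.51 (adjusted p = 0.828) and Nfix was at 0.023 ± 1.09 (adjusted p = 0.998).

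The gene lists below were tested in the grouping used here only, not by label. Genes known to act with or upstream of NFI factors in gliogenesis were described from a list of 7: Sox9, which precedes Nfia in the spinal cord, Zbtb20 and Pou3f2, transcription factors of astrocyte and late progenitor development, Atf3 and Runx2, which act in astrocyte differentiation, and the Notch receptor gene Notch1 with its nuclear partner Rbpj. In outer ONL against olfactory nerve, 3 of 7 were called higher and 1 lower, with a median log2 difference of 0.45 (0.013 over all genes tested), where 22.0% of all genes tested were called. Zbtb20 was higher in outer ONL, at 544 ± 141 CPM against 243 ± 64.9 (1.16 ± 0.20, edgeR adjusted p = 6.91e-05), and Runx2 was lower, at 4.70 ± 2.52 against 17.2 ± 7.88 CPM (-1.87 ± 0.53, adjusted p = 0.00966). Cartilage markers moved the same way as Runx2 (4 of 4 called lower, median log2 difference -2.35), and their part was not tested. Sox9 was at 43.4 ± 16.1 and 62.6 ± 26.1 CPM, and the difference did not pass (-0.53 ± 0.40, adjusted p = 0.393). Between E11.5 and E13.5 nerve, 3 of 7 were called higher (Notch1, Rbpj and Runx2) and 1 lower (Pou3f2), where 36.6% of all genes tested were called and 20.2% were called higher. Notch1 rose by 1.48 ± 0.18 on the log2 scale (adjusted p = 1.37e-07) and Runx2, at 0.214 ± 0.179 CPM at E11.5, by 5.74 ± 0.64 (adjusted p = 4.51e-08). Of 4 cartilage markers 2 were called higher and 1 lower over this interval, with a median log2 difference of 2.78, and their part was not tested. Sox9 was at 132 ± 30.2 CPM at E11.5 and 86.9 ± 46.4 CPM at E13.5 (-0.60 ± 0.34, adjusted p = 0.175). In E13.5 ONL against nerve, 1 of 7 was called higher and 2 lower, where 31.5% of all genes tested were called. Pou3f2 was higher (9.38 ± 0.92, edgeR adjusted p = 2.25e-09), and Sox9 (-1.14 ± 0.34, adjusted p = 0.00952) and Notch1 (-0.99 ± 0.16, adjusted p = 1.27e-05) lower. Forebrain neuron markers moved the same way as Pou3f2 (5 of 5 called higher, median log2 difference 8.15). Cartilage markers moved the same way as Sox9 (3 of 4 called lower, median log2 difference -2.51). The part of either was not tested. For the change of the ONL-nerve difference, 2 of 7 were called higher and 1 lower, where 12.3% of all genes tested were called. Notch1 (1.5 ± 0.25, edgeR adjusted p = 0.000104) and Zbtb20 (1.00 ± 0.26, adjusted p = 0.00932) were higher, and Pou3f2 (-6.61 ± 1.44, adjusted p = 0.00194) was lower. All 5 forebrain neuron markers were called lower in this contrast too (median change -5.66), and their part was not tested.

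A second list held 12 genes linked to NFI factors in gliogenesis: Apcdd1, Mmd2 and Zcchc24, which Sox9 and Nfia induce together in the spinal cord, the astrocyte genes Gfap, Aqp4, Slc1a3, Aldh1l1, S100b and Fabp7, the chromatin gene Ezh2, and the Notch effectors Hes1 and Hes5. In outer ONL against olfactory nerve, 5 of the 12 were called higher and 1 lower, with a median log2 difference of 0.97 against 0.013 over all genes tested, 22.0% of which were called. The glial marker sum was higher in outer ONL in the same comparison, and its part was not tested. Those higher were Apcdd1 (148 ± 27.9 against 17.3 ± 9.22 CPM), Mmd2 (1382 ± 480 against 220 ± 112 CPM), Fabp7, Slc1a3 and Hes5, and Gfap was lower (2.06 ± 0.591 against 16.2 ± 7.25 CPM). Between E11.5 and E13.5 nerve, 4 of the 12 were called higher (Mmd2, Zcchc24, Aqp4 and S100b) and Slc1a3 was called lower, with a median of 0.11 (0.05 over all genes tested, 20.2% of which were called higher). Mmd2 rose by 2.32 ± 0.32 (edgeR adjusted p = 1.42e-06) and Zcchc24 by 0.97 ± 0.14 (adjusted p = 1.8e-06), and Apcdd1, at 4.83 ± 1.59 and 4.65 ± 1.30 CPM, did not pass (-0.087 ± 0.26, adjusted p = 0.828). In E13.5 ONL against nerve, 5 of the 12 were called higher and 3 lower, where 31.5% of all genes tested were called. Among these, Apcdd1 (3.34 ± 0.25, edgeR adjusted p = 8.52e-12) and Mmd2 (2.30 ± 0.27, adjusted p = 4.42e-08) were higher and Zcchc24 was lower (-0.57 ± 0.12, adjusted p = 0.000592). Apcdd1 was also higher in outer ONL than in trigeminal nerve (5.17 ± 0.37, adjusted p = 9.13e-12), where it was at 4.10 ± 0.532 CPM.

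Across the 31 libraries, the members were related to each other to different degrees. Pearson's r of log2(CPM + 0.5) was 0.81 for Nfib with Nfix, 0.77 for Nfia with Nfib and 0.71 for Nfia with Nfix, and lower for Nfic with each of the others (0.57 with Nfia, 0.52 with Nfix and 0.42 with Nfib). The libraries share groups, stages and scaling, and these values describe them only. Among 10711 genes with a mean of at least 10 CPM, those most like Nfia were Pla2g7 (r = 0.914), Cyp4v3 (0.892) and Gdf10 (0.884). Those most like Nfib were Aldh1a3 (0.921), which makes retinoic acid, Calcrl (0.919), a peptide hormone receptor, and Rtl3 (0.910). Those most like Nfic were Efs (0.948), Tmem250-ps (0.921) and Agtrap (0.918). Those most like Nfix were Tnc (0.915), which encodes the matrix protein tenascin C, Col6a3 (0.904), a collagen chain, and Emp1 (0.901), and each of these 3, like Nfix, had its highest group mean in trigeminal nerve (373, 459 and 442 CPM) and its lowest in E11.5 nerve (1.09, 4.52 and 6.37 CPM).

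**Figure D4:**
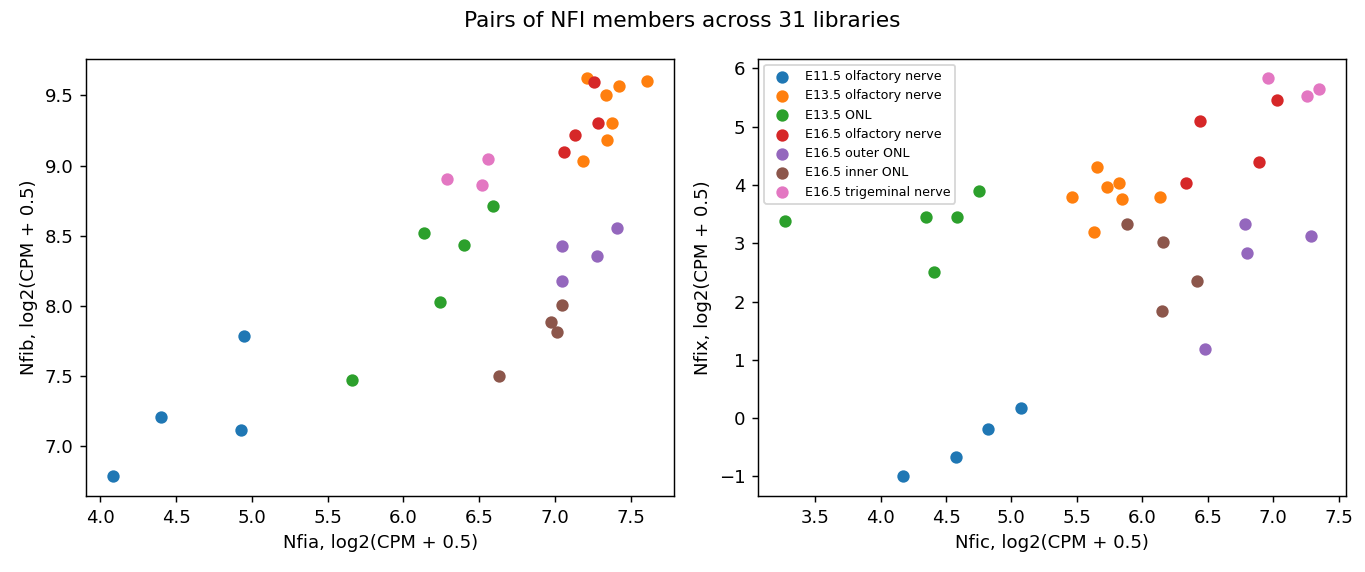
Levels of NFI genes against each other across 31 libraries, as log2(CPM + 0.5), with Nfib against Nfia (left, r = 0.77) and Nfix against Nfic (right, r = 0.52). Colours mark the groups. On the left, outer ONL lies below the E16.5 olfactory nerve libraries in Nfib at overlapping levels of Nfia, and inner ONL lies below those libraries in both genes. On the right, the E11.5 libraries lie apart at the bottom.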

How the data were processed

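The authors deposited one table of read counts per gene for 31 libraries. Per the study's methods, cDNA was made with SMART-seq V4 and libraries with Nextera XT, sequenced paired-end on a NextSeq instrument, aligned to mm10 with Tophat2 2.1.0 (version as in the submitters' processing notes) and counted with HTSeq. The strand setting of the counting is not given in the sources used here, and the kit does not mark strand. Here 1 row without a gene name was dropped, and its values were empty. GENCODE M21 gave symbols to 47224 of 47729 gene identifiers. Members and gene lists were chosen with earlier results of these data known.

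Libraries were grouped as the study's published group means show, because 10 labels contradict them. Counts were scaled with TMM, filtered with filterByExpr by group and tested with edgeR 4.0.16 in R 4.3.3 (quasi-likelihood, 1 fit of 31 libraries in 7 groups, Benjamini-Hochberg over 19332 genes, threshold 0.05). DESeq2 1.42.0 was an alternative. Standard errors were derived from the F statistic. The tests were checked on simulated counts. Exon lengths are union lengths in GENCODE M21. Likeness used log2(CPM + 0.5). All members were reported in all comparisons, list genes where a result turned on them, and the 3 genes most like each member. Counting noise limits values under about 3 counts.

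At E16.5, replicate numbers of the outer ONL and nerve libraries were taken as pairs, since residuals of all 4 same-numbered libraries correlated over 10727 genes (0.256 to 0.531, other pairs -0.389 to 0.386). In the other E16.5 comparisons same-numbered libraries did not all correlate over 0.1 (2 of 4 for inner against outer ONL) and were not taken as pairs. These correlations cannot show that the groups shared no embryo. Per the study, trigeminal pieces were cut from the same sections as the olfactory ones. The main fit used no pairing in any comparison. Alternatives were grouping by label, other scalings, no filter, fewer libraries, a replicate block and leaving out each library. The fit of the 21 libraries whose label matched their group was chosen after seeing the data.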

Additional observations from a re-analysis of the deposited data

Results flagged for a closer look

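Nfia and Nfic differed between stages in how the ONL compared with the nerve, with outer ONL alone taken for the layer at E16.5. The log2 difference between ONL and nerve changed by 1.15 ± 0.22 for Nfia (edgeR adjusted p = 0.000624) and by 1.58 ± 0.30 for Nfic (adjusted p = 0.000423) from E13.5 to E16.5, and both stayed called without any 1 library (adjusted p of at most 0.00225 and 0.00236). Forebrain neuron markers in the ONL pieces moved over the same days, from 803 to 1089 CPM at E13.5 to 6.14 to 133 CPM in outer ONL, and their part was not tested. Grouped by label, neither change was called (1.37, adjusted p = 0.135, and 0.83, adjusted p = 0.154). Of 24 tests by Dixon's rule for a library far from the others of its group, 0 passed, where about 5% would by chance.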

How the results depend on the processing

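The number of members called stayed within 1.5 times in every comparison and setting other than the following. Grouping by label gave 0 members for outer ONL against olfactory nerve, 1 for outer ONL against trigeminal nerve, 0 for olfactory against trigeminal nerve, 0 for inner against outer ONL, 2 for E13.5 against E11.5 nerve and 0 for the change of the ONL-nerve difference; this estimate of the spread pools libraries that the other grouping separates. Total count scaling and the E16.5 libraries alone each gave 2 for olfactory against trigeminal nerve. For inner against outer ONL, DESeq2, the E16.5 libraries alone, the 2 groups alone, the replicate block and the libraries with matching labels each gave 2, and leaving out 1 library gave 0 to 2. For E16.5 against E13.5 nerve, DESeq2, the 2 groups alone and the libraries with matching labels each gave 2, and leaving out 1 library gave 1 to 2. The cause of these changes was not tested.

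No called difference changed sign. Differences near 0 did. That of Nfia between outer ONL and olfactory nerve was -0.12 with total count scaling, -0.03 with upper quartile scaling, -0.04 with DESeq2, -0.056 in the E16.5 libraries alone, -0.0015 in the 2 groups alone, -0.0083 with the replicate block and -0.0042 in libraries with matching labels, and -0.059 to 0.067 without 1 library. Without 1 library, Nfic in that comparison ran from -0.0063 to 0.29, Nfix in inner against outer ONL from -0.40 to 0.17 (0.02 with the block), and Nfib in outer ONL against E13.5 ONL from -0.059 to 0.22. By label, Nfib was at 0.036 in E16.5 against E13.5 nerve, Nfix at 1.06 in outer ONL against E13.5 ONL, and Nfix at 0.023 for the change of the ONL-nerve difference.

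Over all genes, the calls moved by over 1.5 times by label, from 2733 to 1658 for inner against outer ONL, from 6087 to 3421 for E13.5 ONL against nerve and from 7071 to 3380 for E13.5 against E11.5 nerve, and with the block from 4989 to 3283 for outer ONL against trigeminal nerve, where outer ONL replicate 4 has no partner and was left out. Block fits used the 2 groups alone. They called Nfib there (-0.62, adjusted p = 0.0393) and in inner against outer ONL (-0.58, adjusted p = 0.0179), as the 2 groups alone did with no block (adjusted p = 0.0167 and 0.0211), and changed no other call. The numbers were taken as pairs in outer ONL against olfactory nerve only, where the block gave Nfix -2.23 (adjusted p = 0.000525) and Nfib -0.95 (adjusted p = 0.000609). Total count scaling moved the median log2 difference of all genes from 0.013 to -0.127 in outer ONL against olfactory nerve, from 0.012 to 0.130 in outer ONL against trigeminal nerve and from -0.010 to 0.244 in olfactory against trigeminal nerve, and set the trigeminal means of Nfia, Nfib and Nfix at 76.4, 430 and 44.1 CPM. The fold of Nfix from E11.5 to E13.5 rests on 23 counts or fewer in each E11.5 library.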
